A study of Mus musculus with 4 samples.

Results

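The genes described here are 7 genes of follicular T cells, Cxcr5, Bcl6, Tox, Tox2, Sostdc1, Ascl2 and Pou2af1, measured by RNA sequencing in mouse regulatory T cells (Treg cells). They were taken by symbol from a table of raw read counts, where each matched 1 of 27179 rows. They were selected on their counts in the WT and P65KO libraries, with the difference between the groups already known. That difference is therefore described below. Calls from a test over all genes are given, and nothing is read from them for these genes. The cells were CD4+Foxp3+ Treg cells of steady-state C57BL/6 mice, with spleen and peripheral lymph nodes combined. The WT group had 2 libraries and the P65KO group, described as lacking RelA (p65), a subunit of the transcription factor NF-kB, had 2. No label gives the promoter or Cre line behind the deletion, the age or number of the mice, or whether replicates came from separate animals.

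Follicular regulatory T cells are Treg cells that enter B cell follicles and restrain the germinal centre reaction. They share with follicular helper T cells the chemokine receptor CXCR5, which guides cells towards the ligand CXCL13 in follicles, and the transcriptional repressor BCL6, on which both cell types depend. TOX and TOX2 are related HMG-box DNA-binding proteins and ASCL2 is a basic helix-loop-helix factor that can induce CXCR5. POU2AF1 (OCA-B) is a coactivator of the octamer-binding factors POU2F1 and POU2F2, best known from B cells, and SOSTDC1 is a secreted antagonist of BMP and Wnt signals made by follicular T cells. The labels name no sort for follicular cells, so each value is an average over all Treg cells of a library, and fewer follicular cells cannot be told apart from less of these RNAs per cell.

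The 4 libraries held 4513863 to 4624230 counts, so that 3 counts in 1 library, taken as the floor, are 0.646 to 0.664 CPM (counts scaled to library size with TMM factors). The labelled cell type was checked by counts of Foxp3 (1724 to 2385) and Cd4 (4371 to 5313), while the CD8 chain genes Cd8a and Cd8b1 had 4 to 11 and 113 to 141 counts. Counts of Rela were 875 and 806 in WT against 820 and 909 in P65KO libraries; a count over the whole gene includes exons outside a deleted part and does not check the label. The groups also differed in sex-linked RNA, with 494 and 608 counts of Xist in WT against 0 and 2 in P65KO, and with 0 counts of the Y-linked Ddx3y in both WT libraries against 302 and 404. Genotype label and the sex that these transcripts mark cannot be told apart here, for any gene. None of the 7 genes lies on the X or Y chromosome, and whether their levels differ with sex was not tested.

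All 7 genes had lower CPM in both P65KO libraries than in either WT library. Ascl2 had too few counts for the filter, which kept 11172 genes, and the other 6 were tested in the fit over all genes. Among these 6, Sostdc1, Tox2 and Cxcr5 differed most and Tox and Pou2af1 least. Groups did not overlap, with P65KO lower, in 6 of these 6 and in 30.9% of all genes tested, while 29.7% of all genes did not overlap with P65KO higher. At a Benjamini-Hochberg adjusted p under 0.05 (edgeR quasi-likelihood test, two-sided) 6 of the 6 were called, all lower, against 20.7% of all genes called, 11.7% lower and 9.00% higher. The number of all genes called, 2310, was 919 without WT replicate 1, 916 without WT replicate 2, 1318 with DESeq2 and 771 with no filter on low counts. Because the genes were listed with this comparison in view, nothing is read from these counts.

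**Figure D1:**
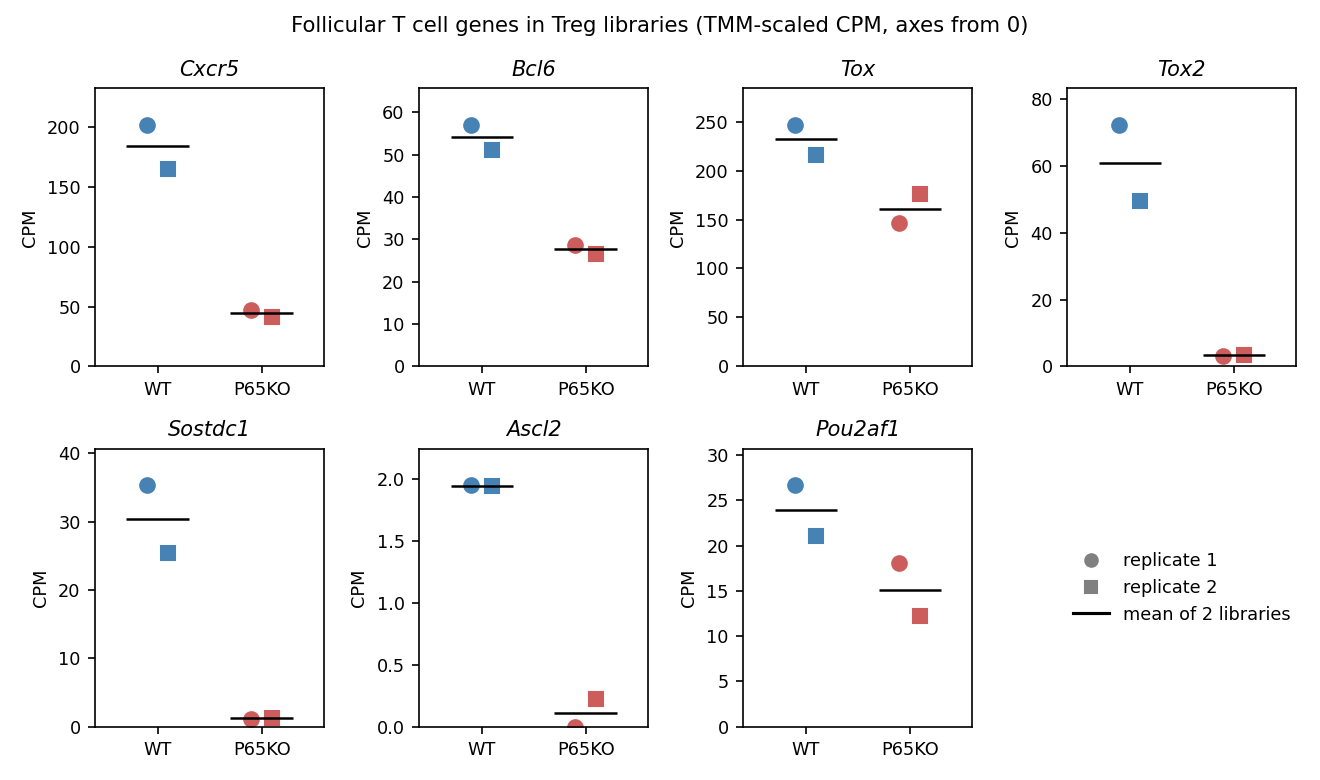
CPM scaled by TMM (y axis, linear from 0, a separate range per gene) in the WT and P65KO libraries (x axis); circles are replicate 1, squares replicate 2, and lines the mean of 2 libraries. Both P65KO points lie under both WT points for each gene, with the narrowest gaps for Pou2af1 (18.1 under 21.1 CPM) and Tox (176 under 216 CPM).

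Cxcr5 (Entrez 12145; GRCm38 chromosome 9, 44511787 to 44526444, minus strand) is the receptor of the group. Its counts were 932 and 767 in WT against 215 and 185 in P65KO libraries, or 202 and 165 against 47.4 and 41.0 CPM. The lower WT library was 3.48-fold above the higher P65KO library. The fitted log2 difference, P65KO minus WT throughout, was -2.05 (SE 0.13, n = 2 each), which leaves 24.1% of the WT level. Its last 110 bases overlap the end of Bcl9l on the other strand, and the strand setting of the counting is not given in the sources used here.

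Bcl6, the repressor (Entrez 12053; chromosome 16, 23965050 to 23988866, minus strand), was counted 263 and 238 times in WT against 130 and 120 times in P65KO libraries. These are 57.1 and 51.2 CPM against 28.7 and 26.6 CPM. Replicates of Bcl6 lay close together, with the higher library 1.11-fold above the lower in WT and 1.08-fold in P65KO. Its log2 difference was -0.97 (SE 0.13), or 51.0% of the WT level, a smaller difference than that of Cxcr5. Bcl6 shares 114 bases with Gm37419 on the other strand.

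Ascl2 (Entrez 17173; chromosome 7, 142966822 to 142969264), an activator of Cxcr5, was near the limit of detection. It had 9 counts in each WT library and 0 and 1 in the P65KO libraries, so 18 counts stood against 1. The ratio of WT to P65KO was 18.2, with an exact 95% conditional binomial interval of 2.87 to 758 that covers counting error only. So few counts leave the size of the difference wide.

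The paired HMG-box genes differed in how far they stood apart between the groups. Tox (Entrez 252838; chromosome 4, 6686353 to 6991557), which is also used in thymic development and in exhausted T cells, reached 1139 and 1006 counts in WT against 662 and 793 in P65KO libraries. That is 247 and 216 against 146 and 176 CPM, a log2 difference of -0.53 (SE 0.11), or 69.4% of the WT level. Tox2 (Entrez 269389; chromosome 2, 163203058 to 163324172) reached 333 and 229 counts in WT against 14 and 16 in P65KO libraries, at 72.3 and 49.3 against 3.09 and 3.54 CPM. Its log2 difference was -4.18 (SE 0.25), which leaves 5.5% of the WT level. Per length, Tox exceeded Tox2 by 2.01-fold and 2.58-fold in WT, compared with 26.8-fold and 28.2-fold in P65KO libraries. No annotated gene overlaps Tox2, whereas the antisense gene Gm11802 shares 15992 bases with Tox. Their relative Tox4 stood at 524 and 597 counts in WT against 527 and 582 in P65KO libraries (log2 difference 0.02, SE 0.10; edgeR quasi-likelihood, adjusted p = 0.930), and Tox3 had 1 count in all 4 libraries.

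Pou2af1 (Entrez 18985; chromosome 9, 51213690 to 51240079), the octamer coactivator, shares 3789 bases with the intronic gene Gm47828 on the same strand. Pou2af1 had the weakest separation with Tox. Its counts were 123 and 98 in WT against 82 and 55 in P65KO libraries, at 26.7 and 21.1 against 18.1 and 12.2 CPM. The lower WT library was 1.17-fold above the higher P65KO library, while the P65KO replicates themselves differed 1.48-fold. Its log2 difference was -0.66 (SE 0.21), and it ran from -0.40 without P65KO replicate 2 to -0.97 without P65KO replicate 1. Pou2af1 was not called by DESeq2, nor with low counts kept, nor when WT replicate 1, WT replicate 2 or P65KO replicate 2 was left out. Tox was not called with low counts kept, nor when WT replicate 1 or P65KO replicate 1 was left out.

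Pou2af1 is a B cell gene as well, and so are Cxcr5 and Bcl6, so B cell transcripts are given beside them. Among 15 B cell markers, Pax5 and Ebf1, which encode B cell lineage factors, had 0 counts in all libraries and Ms4a1 (CD20) had 2 to 6. The summed level of the 15 was 1350 and 1360 CPM in WT and 2460 and 1440 CPM in P65KO libraries. Most of the P65KO sum was Cd74, an MHC class II chaperone that myeloid cells also make, and without it the sums were 1120 and 1110 against 793 and 503 CPM. Of the 6 markers tested, Cd79b, Cd22, Ighm and Ighd fell, Cd74 rose and Bank1 did not pass, by the same edgeR test. P65KO replicate 1, the P65KO library with more Pou2af1, also held more Jchain (790 counts against 229 in replicate 2) and more of the 10 myeloid and dendritic markers (1060 against 399 CPM, and 204 and 282 CPM in WT). The part of these other transcripts in the Pou2af1 values was not tested.

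Sostdc1 (Entrez 66042; chromosome 12, 36314169 to 36318452), the secreted antagonist, had the largest difference of the 6 genes tested. Its counts were 163 and 118 in WT against 5 and 6 in P65KO libraries, or 35.4 and 25.4 against 1.10 and 1.33 CPM. The log2 difference was -4.61 (SE 0.31), leaving 4.09% of the WT level. The ratio of group counts was 25.8, with an exact 95% interval of 14.2 to 52.3 from counting error alone, and for Tox2 it was 18.9 (13.1 to 28.3). The intervals of Sostdc1 and Tox2 overlap, so their order is not settled by the counts. Among the 11172 genes tested, Sostdc1 was the 25th and Tox2 the 40th lowest by log2 difference, ahead of Cxcr5 (266th), Bcl6 (763rd), Pou2af1 (1187th) and Tox (1505th).

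Compared per length, in the authors' length-scaled and depth-scaled values (RPKM), the order of the 7 genes differed between the groups. In WT, Tox (82.5 ± 8.49 RPKM, SD, n = 2) and Cxcr5 (71.3 ± 10.9) led with ranges that overlapped, followed by Tox2 (36.9 ± 10.2). Sostdc1 (17.7 ± 4.25) and Bcl6 (16.8 ± 1.44) also overlapped, Pou2af1 stood at 9.49 ± 1.65 and Ascl2 at 1.29 ± 0.0197. In P65KO libraries Tox still led (55.3 ± 6.82 RPKM), then came Cxcr5 (16.6 ± 1.83), Bcl6 (8.29 ± 0.50) and Pou2af1 (5.83 ± 1.64), with no overlap between neighbours. Tox2 (2.01 ± 0.175) and Sostdc1 (0.743 ± 0.0846) stood below Bcl6 and Pou2af1, and Ascl2 was last. RPKM of Ascl2 is not interpreted in P65KO, since the authors' values add 0.5 to each count. The position of Tox2 among all tested genes was the 77.7th percentile by RPKM in WT and the 12.7th in P65KO, and that of Tox the 90.3rd and the 85.8th.

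**Figure D2:**
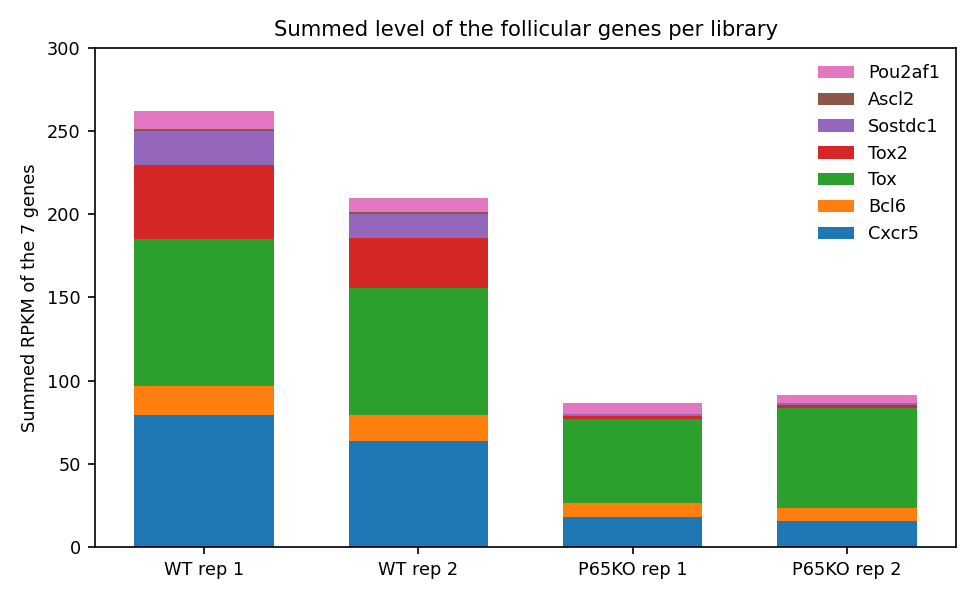
Summed RPKM of the 7 genes (y axis) in each library (x axis), with 1 colour per gene. The sums are 262 and 210 RPKM in WT and 86.7 and 91.3 in P65KO libraries; Tox makes up 33.8% and 36.5% of the WT sums and 58.3% and 65.9% of the P65KO sums.

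The make-up of the sum shifted with its size. Cxcr5 held 30.1% and 30.3% of the summed RPKM in WT, compared with 20.7% and 16.8% in P65KO libraries. Tox2 held 16.8% and 14.2% in WT against 2.17% and 2.33%. The share of Bcl6 was 6.78% and 7.5% in WT and 9.96% and 8.69% in P65KO, so Bcl6 took a larger share of a smaller sum. Cxcr5 exceeded Bcl6 per length by 4.45-fold and 4.04-fold in WT and by 2.07-fold and 1.93-fold in P65KO libraries.

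The genes were selected with the group difference known, and their groups do not overlap, which bounds the spread between replicates. The replicate values are therefore a description. In WT, all 6 tested genes were higher in replicate 1 than in replicate 2, against 50.1% of all genes tested with 11 of 23 surface and secreted partners and 15 of 20 transcriptional partners of the lists below. The ratio of WT replicate 1 to WT replicate 2 was 1.49 for Tox2 (exact 95% conditional binomial interval 1.25 to 1.77), 1.41 for Sostdc1 (1.11 to 1.80) and 1.24 for Cxcr5 (1.13 to 1.37). For Tox it was 1.16 (1.06 to 1.26), and the intervals of Bcl6 (0.944 to 1.35) and Pou2af1 (0.976 to 1.69) included equality. The P65KO libraries showed no common side, since 3 of the 6 were higher in replicate 1. There the ratio of replicate 1 to 2 was 0.840 for Tox (0.756 to 0.932) and 1.5 for Pou2af1 (1.05 to 2.15).

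**Figure D3:**
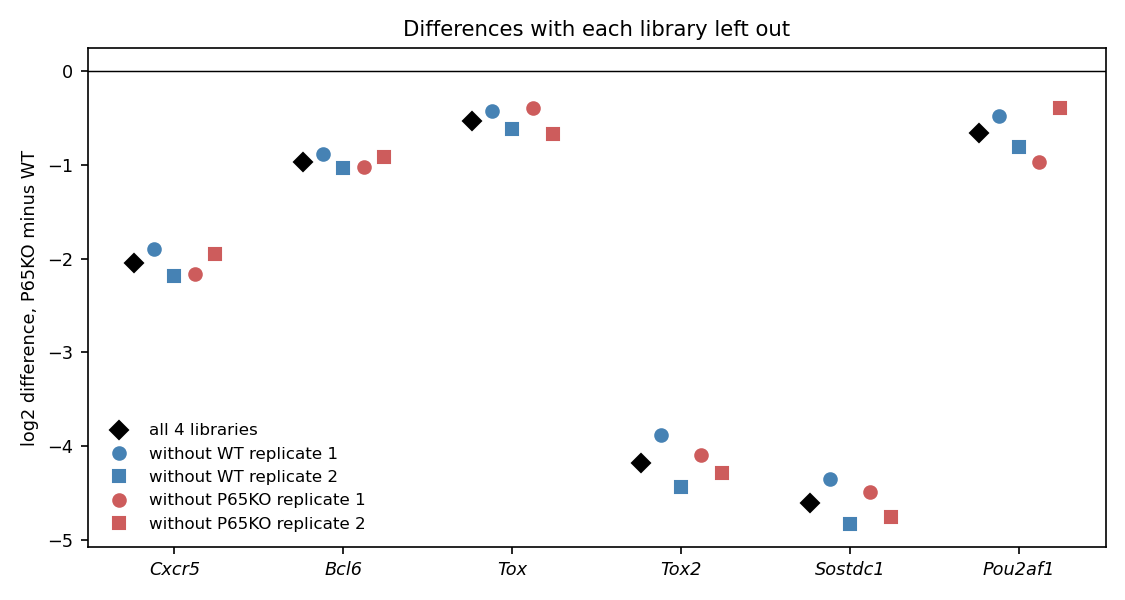
Fitted log2 difference, P65KO minus WT (y axis), of the 6 tested genes (x axis) with all 4 libraries (diamonds) and with 1 library left out (circles, replicate 1; squares, replicate 2; blue, WT; red, P65KO). Points of Tox2 run from -4.43 to -3.88 and those of Pou2af1 from -0.97 to -0.40.

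Promoter sequences were available from RefSeq (GRCm38.p6) for 4 of the 7 genes, Bcl6, Tox2, Ascl2 and Pou2af1, in 9 windows. Shown are the 250 bases before 1 start site each of Tox2, Bcl6 and Pou2af1, genes with a large, a middle and a small difference, so that their upstream sequence can be compared. The start sites used for Tox2 and Bcl6 lie inside the gene spans given above, so their windows partly overlap those spans. Capitals mark the E-box CANNTG, the core bound by basic helix-loop-helix factors such as ASCL2, searched on both strands, where it reads the same.
Tox2, chr2:163202877-163203126, plus strand: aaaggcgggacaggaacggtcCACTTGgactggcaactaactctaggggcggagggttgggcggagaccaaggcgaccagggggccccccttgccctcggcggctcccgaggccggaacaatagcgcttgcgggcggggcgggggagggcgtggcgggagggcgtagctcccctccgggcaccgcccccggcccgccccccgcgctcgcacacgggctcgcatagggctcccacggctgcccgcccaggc
Bcl6, chr16:23988853-23989102, minus strand: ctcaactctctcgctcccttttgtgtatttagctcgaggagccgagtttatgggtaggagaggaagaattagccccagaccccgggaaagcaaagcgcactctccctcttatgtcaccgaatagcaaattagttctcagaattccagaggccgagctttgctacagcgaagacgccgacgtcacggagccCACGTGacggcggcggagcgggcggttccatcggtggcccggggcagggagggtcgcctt
Pou2af1, chr9:51213440-51213689, plus strand: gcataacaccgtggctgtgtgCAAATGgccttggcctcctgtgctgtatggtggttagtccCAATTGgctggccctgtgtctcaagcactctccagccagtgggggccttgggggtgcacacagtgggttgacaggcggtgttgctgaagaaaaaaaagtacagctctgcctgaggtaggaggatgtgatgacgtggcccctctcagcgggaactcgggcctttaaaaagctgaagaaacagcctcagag

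The E-box of Bcl6 starts 60 bases before the start site of its window, that of Tox2 229 bases, and those of Pou2af1 229 and 189 bases. Over the 4 genes, 7 of 9 windows held an E-box, some of them overlapping windows of Tox2, against 66.2% of 32851 windows of the same length. The octamer ATGCAAAT, bound by the partners of POU2AF1, was in 0 of the 9 and in 1.6% of all windows. The NF-kB consensus was likewise in 0 of the 9 and in 3.90% of all windows, also searched on both strands. G and C made up 75.2% of the Tox2 window, 58.4% of that of Bcl6 and 56.0% of that of Pou2af1. These are letters in a short window and say nothing of binding elsewhere.

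Other genes of the follicular programme were taken from 3 lists. These lists were also chosen with earlier results of these data known, so their numbers are a description. Over all genes tested, 11.7% were called lower and 9.00% higher. Of 24 surface and secreted partners, such as receptors and cytokines of follicular T cells, 23 were tested, 14 fell, 1 rose and 8 did not pass; their median log2 difference was -0.78 and that of all genes tested 0.00. Tigit, an inhibitory receptor gene, went from 250 to 6.96 CPM and fell (log2 -5.16 with an SE of 0.16; edgeR quasi-likelihood, adjusted p = 3.60e-09). Il1r2, a decoy receptor for interleukin-1 known from follicular regulatory T cells, fell from 87.9 to 2.98 CPM. Pdcd1 (PD-1) and Icos, the receptors by which follicular T cells are commonly sorted, fell from 242 to 48.1 and from 319 to 67.9 CPM (log2 -2.33 and -2.23). The gene that rose was Il6ra, a receptor chain for a cytokine that promotes follicular helper cells, from 157 to 236 CPM (log2 0.60 with an SE of 0.12; edgeR quasi-likelihood, adjusted p = 0.00301), which no longer passed with low counts kept or with WT replicate 2 left out (adjusted p = 0.0955 and 0.0799).

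Transcriptional partners were divided. Of 20, all tested, 9 fell, 4 rose and 7 did not pass, with a median of -0.13. Maf, which promotes Il21 and follicular differentiation, fell from 173 to 17.2 CPM (log2 -3.32 with an SE of 0.13; edgeR quasi-likelihood, adjusted p = 1.12e-08). Batf and Irf4, AP-1 and IRF factors that act together, fell from 122 to 37.7 and from 112 to 44.6 CPM. Cebpa fell from 40.9 to 10.2 CPM, with 77 and 15 counts in the P65KO libraries, and its log2 difference of -2.0 was -3.61 without P65KO replicate 1 and -1.27 without P65KO replicate 2. It did not pass with DESeq2, with low counts kept, or with WT replicate 1 or 2 left out (adjusted p of 0.0979 to 0.252). Among the genes that rose were Tcf7, Lef1 and Bach2, named after their values were seen. Being in this list does not mean that a gene promotes the programme, and the direction of a gene is not read further. The number of the 20 that passed was 8 with no filter on low counts, 8 without WT replicate 1 and 7 without WT replicate 2, against 13.

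The 20 genes that oppose the follicular programme or keep T cells outside follicles moved both ways, with 7 lower, 8 higher and 5 that did not pass, and a median of 0.03. Prdm1 (BLIMP-1), the factor that BCL6 represses and that represses Bcl6, fell from 41.8 to 11.0 CPM (log2 -1.92 with an SE of 0.17; edgeR quasi-likelihood, adjusted p = 8.69e-06). Bcl6 and its antagonist were thus both lower in P65KO libraries. Runx2 and Tbx21 (T-bet), a T helper lineage factor, fell from 23.1 to 6.08 and from 25.8 to 7.73 CPM. Among the genes of migration in this list, singled out after their values were seen, Ccr7, S1pr1 and Klf2 rose by log2 0.92, 0.90 and 0.77, while Gpr183, a receptor that positions cells at follicle borders, fell (log2 -0.57). With no filter on low counts 8 of the 20 passed, against 15.

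**Figure D4:**
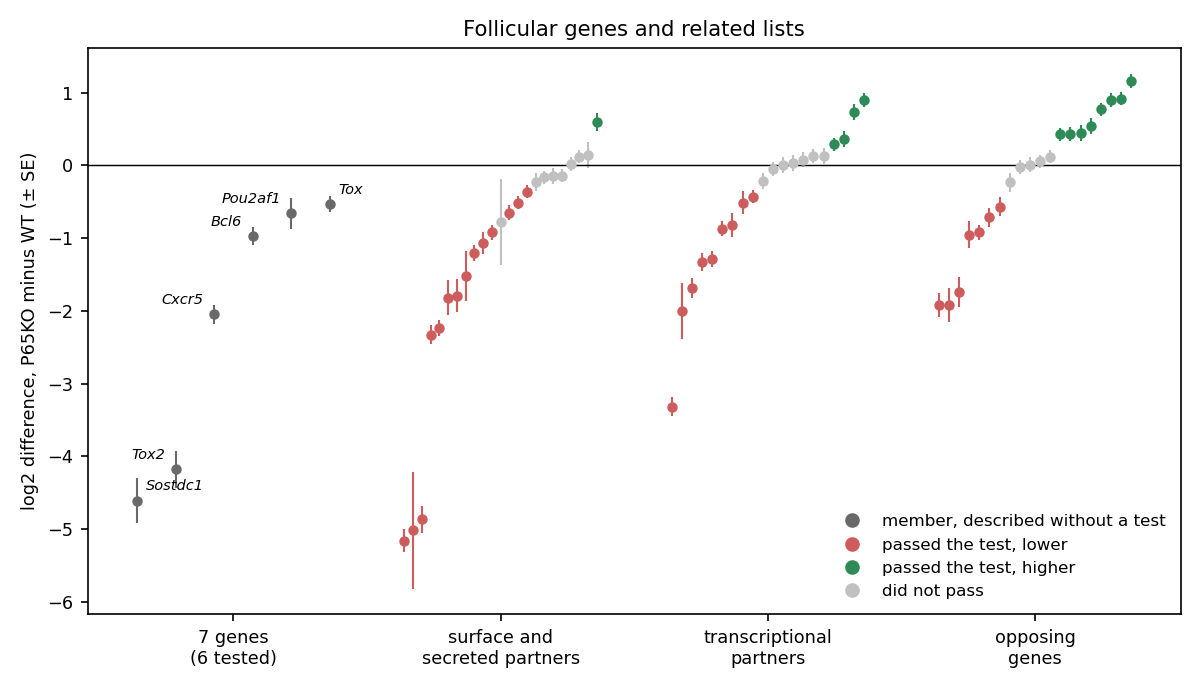
Fitted log2 difference, P65KO minus WT, with its SE (y axis), for the 6 tested genes of the group and the tested genes of the 3 lists (x axis), each ordered by value. Dark grey points are the 6 genes of the group that were part of the fit over all genes. The figure marks them as described without a test, because nothing is read from their calls. In the lists, red and green points passed the test, lower and higher, and light grey points did not. Of 23 surface and secreted partners 14 are red, while the opposing genes divide into 7 red and 8 green.

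The genes nearest to Cxcr5 and to Bcl6 across the 4 libraries were found by the distance between log2 CPM profiles, each centred on its mean, among 9927 other genes of at least 5 CPM. Nearest to Cxcr5 were Ahr (distance 0.167), Pfn2, Cyfip1, Rgs16 and Gbp2b (0.234), and nearest to Bcl6 were Junb (0.0706), Cd101, Ubash3b, Whsc1 and Maged2 (0.0930). Ahr, the aryl hydrocarbon receptor gene, had 41.7 and 38.5 CPM in WT and 10.8 and 9.52 in P65KO, and Junb, an AP-1 gene, 297 and 259 against 151 and 132. None of the other follicular genes was among these nearest genes. Bcl6 was the 360th nearest to Cxcr5, at a distance of 1.09, and Pou2af1 the 501st and Tox the 673rd nearest to Bcl6. Others had later ranks, with Cxcr5 the 6107th, Tox2 the 9813th and Sostdc1 the 9834th nearest to Bcl6. Tox2 was the 3788th and Sostdc1 the 6545th nearest to Cxcr5. The distance between Cxcr5 and Bcl6 is 1.09 from either side. Their unlike ranks reflect how many genes lie near each, so ranks around Cxcr5 and around Bcl6 are not comparable. With 4 libraries in 2 groups, this likeness rests mainly on the difference between the groups, and it is a description.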

How the data were processed

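The deposited table holds raw counts of 4 libraries by Entrez gene, and the authors also deposited log2 RPKM values per gene and library. Subread, featureCounts and limma, with the build GRCm38 (mm10), are named in the submitters' processing notes; for versions, annotation and strand setting: not given in the sources used here. The deposited log2 RPKM values came from the count plus 0.5, the gene length and the library total, and gave a whole gene length (within 0.01) for 27178 of 27179 genes.

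Groups came from the titles. Counts were filtered with filterByExpr, scaled by TMM and compared with the quasi-likelihood test of edgeR 4.0.16 in R 4.3.3 (Benjamini-Hochberg over 11172 genes, threshold 0.05). On simulated counts with 200 changed genes, this test called 44.8% of 1.5-fold, 80.6% of 2-fold and 95.5% of 4-fold changes. In the data more genes were called, 2310, so the simulated setting differs. The SE is the log2 difference divided by the square root of F. P-values measure only how these libraries vary, and that variation may be technical. Alternatives were DESeq2 1.42.0, limma-voom (limma 3.58.1), RLE factors, no filter, a replicate block and each library left out. Coordinates are from RefSeq (GRCm38.p6), overlaps from GENCODE (GRCm38). Intervals and floors hold for counting error alone, because PCR copies of a molecule were not marked.

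The 7 genes and the lists were chosen with earlier results of these data known. The text names all 7 and, per list, the 4 genes past the threshold with the largest difference at a mean of at least 5 CPM, plus genes moving against the list where there were 3 or fewer. Some items that this rule or the lists give are not reported here. The text also names the 5 genes nearest to Cxcr5 and to Bcl6. A list of relatives of the 7 genes had 3 of 10 members tested, of which Cxcr3 and Cxcr6 fell (log2 -3.14 and -2.14) and Tox4 did not pass. Of 6 T and Treg cell markers, 5 were tested, of which Il2ra rose and Trac fell; of 6 germinal centre B cell markers 2 were tested and S1pr2 fell; of 5 plasma cell markers 3 were tested and Prdm1 fell; of 10 myeloid and dendritic markers 7 were tested and 5 rose.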

Additional observations from a re-analysis of the deposited data

How the results depend on the processing

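The direction of the 6 follicular genes says nothing of stability, since they were selected with the group difference known and their groups do not overlap. Their median log2 difference, -1.51, was -1.62 to -1.39 with 1 library left out. Over all genes, 2310 were called, 1318 with DESeq2, 771 with no filter on low counts and 916 to 1676 with 1 library left out (919 without WT replicate 1, 916 without WT replicate 2). Of the surface and secreted partners 15 were called, and 12 to 16 with 1 library left out. Transcriptional partners called numbered 13, but 8 with no filter and 7 to 11 with 1 library left out. Opposing genes called numbered 15, but 8 with no filter and 10 to 15 with 1 library left out. For each of these shifts in number the cause was not tested. The 15 genes that the naming rule gives from the lists kept their direction under all settings, and 6 of 150 combinations, of Il6ra and Cebpa, lost the call. Most of these 15 genes were named for large differences in the same libraries, so their direction says little of stability. The labels do not say that a replicate number marks a shared litter or day. With the replicate number as a replicate block, 2319 genes were called over all and 15, 12 and 15 in the 3 lists. The deviations of same-numbered libraries correlated at -0.137 across genes, and with the numbers crossed, chosen after seeing the data, 2973 genes were called. Depth limits Ascl2, which had 1 count in the P65KO libraries, and the fold of Sostdc1, which had 11.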
